A study of Rattus norvegicus and Mus musculus with 25 samples.

Results

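Cyclin-dependent kinase inhibitors were followed in neonatal heart muscle cells of rat and mouse. The members were taken by gene symbol: Cdkn1a, Cdkn1b, Cdkn1c, Cdkn2a, Cdkn2b, Cdkn2c and Cdkn2d, which are 7 of the 66954 distinct names in the tables. Each rat table held 6 of them among 28909 lines, and Cdkn2d was not analysed here in rat. The mouse table held all 7 among 54087 lines.

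RNA sequencing covered 25 libraries in 11 groups, 16 from rat (2 per group) and 9 from mouse (3 per group), in a study of the lipoprotein receptor Vldlr and its ligands Reelin and Thbs1. The rat cells were ventricular cardiomyocytes from 1-day-old SD rats, pre-plated to remove cells that attach faster, and kept in medium with 0.25% serum. The si-Vldlr and si-Control_v groups received 50 nM small interfering RNA for 60 h, and the si-Thbs1 and si-Control_t groups were treated in the same way and lie in a table of their own. Reelin and PBS cultures were treated for 48 h. The Vldlr OE group carried AAV9-cTnT-Vldlr, an adeno-associated virus that drives Vldlr from the cardiac troponin T promoter, for 72 h. Its comparator is labelled only Control. The treatment text names AAV9-CMV-GFP, a virus whose promoter is not restricted to heart muscle, beside it, and the label of the Control group itself gives neither virus nor time. The 2 columns used for it are named Blank, a name that gives no treatment. They were assigned to Control by elimination, so they are called Control column 1 and Control column 2 here. The mouse cells were C57BL/6 cardiomyocytes at day 1, with Vldlr f/f (floxed alleles, no Cre), Myh6-Cre;Vldlr f/+ and Myh6-Cre;Vldlr f/f. All of these mice carry at least 1 floxed Vldlr allele, both Cre groups also carry the Myh6-Cre transgene, whose promoter acts in heart muscle cells, and no Cre group without a floxed allele is among them.

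These proteins are brakes of the cell division cycle. The Cip/Kip members p21 (Cdkn1a), p27 (Cdkn1b) and p57 (Cdkn1c) bind complexes of cyclins with cyclin-dependent kinases, whereas the INK4 members p16 (Cdkn2a), p15 (Cdkn2b), p18 (Cdkn2c) and p19 (Cdkn2d) bind Cdk4 and Cdk6 and keep cyclin D away from them. With the kinases blocked, the retinoblastoma proteins hold E2F factors in check and genes of DNA replication stay low. Heart muscle cells stop dividing soon after birth, and p21, p27 and p57 are the inhibitors best known from that exit.

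Values are CPM, counts scaled to a common total per library, and the step between values put depth at 66088372 to 97773385 steps per library, where a step need not be a read. Vldlr averaged 177 CPM with si-Vldlr against 255 in si-Control_v, 773 in Vldlr OE against 478 in Control, and 78.4 in Myh6-Cre;Vldlr f/f against 156 in Vldlr f/f. Thbs1 averaged 645 CPM with si-Thbs1 against 918 in si-Control_t. In each of these 4 comparisons the libraries did not overlap, and none of the differences passed limma's adjusted threshold (adjusted p = 0.348, 0.958, 0.997 and 0.821). In Myh6-Cre;Vldlr f/+ Vldlr averaged 104 CPM (98.4 to 112 CPM), which overlapped Vldlr f/f (109 to 195 CPM; limma adjusted p = 0.999). Summed cardiomyocyte markers lay between 12304 and 26253 CPM in rat and between 44249 and 60365 CPM in mouse, and summed fibroblast markers between 28089 and 46458 CPM in rat and between 2972 and 5624 CPM in mouse. Fibroblast RNA was thus present throughout the rat cultures. In bulk RNA a change in the number of cells of a type and a change in RNA per cell cannot be told apart, and the labels do not say that libraries of a group come from separate cultures or animals, so each p-value measures the spread between libraries.

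Cdkn1a, the p21 gene and a textbook target of p53, was the Cip/Kip member whose level differed most between the control groups of the larger rat table. It read 109.8 and 127 CPM in the si-Control_v libraries, 121 and 118 CPM in the PBS libraries, and 337 and 258 CPM in Control columns 1 and 2. Among the treated cultures of the same table it read 102 and 106 CPM with si-Vldlr, 118 and 115 CPM with Reelin, and 441 and 410.2 CPM in Vldlr OE. The Control and Vldlr OE libraries were thus the 4 highest of the 12, with a wide gap below them, and the other 8 libraries stayed close together. In the separate table Cdkn1a read 155 and 144 CPM in si-Control_t and 113 and 130.0 CPM in si-Thbs1.

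The stretch just upstream of the rat Cdkn1a gene is shown because it carries a match to the p53 binding site in the window searched. It spans chr20:7150682-7150819 on the plus strand of GRCr8 (RefSeq sequence and start site, while the tables were made on rn6), and ends 1 base before the first annotated base of the gene. The capitals mark a match of 20 bases to a pair of adjacent p53 half-sites, 1 base off the consensus.
Rat Cdkn1a upstream: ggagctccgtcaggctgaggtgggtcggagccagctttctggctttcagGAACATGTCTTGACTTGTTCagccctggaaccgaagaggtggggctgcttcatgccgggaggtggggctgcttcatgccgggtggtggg
Over the 250 bases before the start site of 33469 RefSeq genes, such a paired site with at most 1 base off was found in 20 promoters, or 0.0598%, on both strands. Promoters of 6 members, all but Cdkn1c, were in the table, and Cdkn1a was the only one of them with the paired site. A single p53 half-site also began 11 bases before the start site in Cdkn2c and 179 bases before it in Cdkn2d. Half-sites occurred in 6.64% of all promoters. A motif set for E2F (TTTCGCGC, TTTGGCGC, TTTCCCGC and TTTCCCGG, both strands) occurred in 2.60% of the promoters and, among those 6, in that of Cdkn2c, 91 bases before the start site. These are matches of letters only.

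Cdkn1b, which encodes p27, was nearly flat in the larger rat table. Its values ran from 58.9 CPM in a si-Vldlr library to 70.5 CPM in a si-Control_v library, and all other libraries fell in between. The smaller table gave 90.6 and 91.2 CPM in si-Control_t and 76.6 and 104 CPM in si-Thbs1, so the treated pair enclosed the control pair.

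Cdkn1c, the imprinted gene of p57, was lower and noisier. It read 13.6 and 26.0 CPM in si-Control_v, 14.8 and 16.1 CPM in PBS, and 22.0 and 19.2 CPM in the Control columns. The si-Vldlr libraries held 18.0 and 20.0 CPM, the Reelin libraries 16.6 and 14.8 CPM, and the Vldlr OE libraries 30.4 and 16.0 CPM. Single libraries of si-Control_v and Vldlr OE thus spanned nearly the whole range of the table. In the smaller table the si-Control_t libraries held 47.8 and 61.5 CPM and the si-Thbs1 libraries 26.5 and 38.1 CPM, with both treated libraries below both controls.

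**Figure D1:**
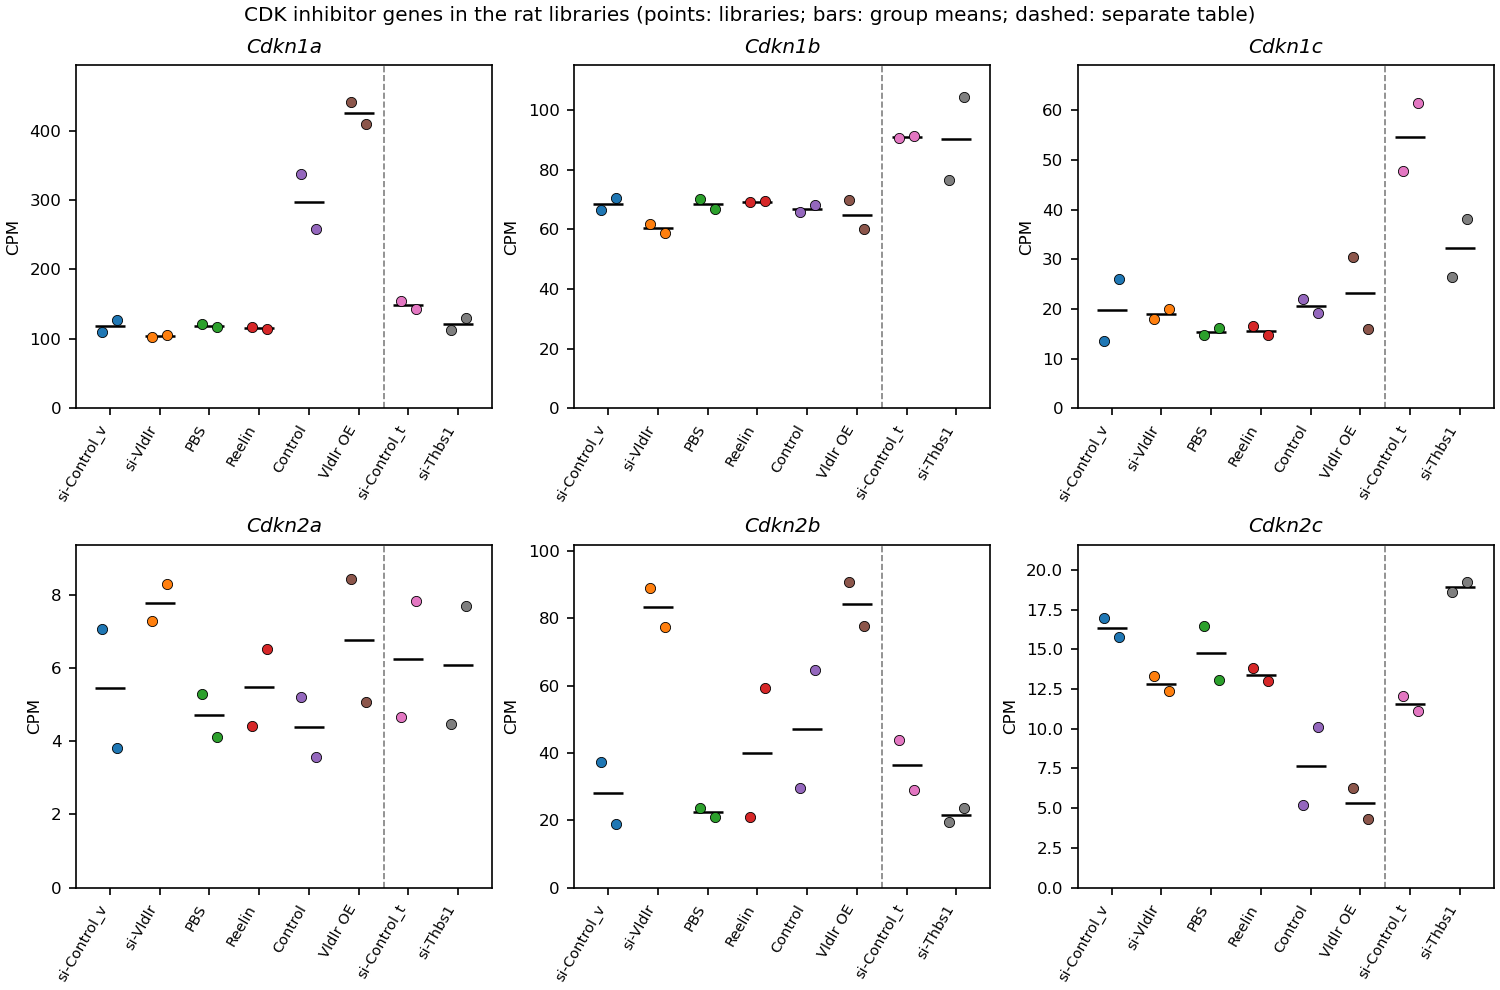
CPM of the 6 members with a line in the rat tables, by group; each point is a library, each bar the group mean, and the dashed line sets off the groups of the separate table of 4 libraries. For Cdkn1a the Control and Vldlr OE points sit between 258 and 441 CPM and all other points of the larger table between 102 and 127 CPM.

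Cdkn2a, which encodes p16 and, from another reading frame, Arf, was low in rat. It lay between 3.57 and 8.44 CPM over all 16 libraries, and the table does not separate its transcripts. The highest group mean was that of si-Vldlr, at 7.80 ± 0.706 CPM (SD, n = 2), and the lowest that of Control, at 4.40 ± 1.16 CPM (SD, n = 2).

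Cdkn2b, the p15 gene and a known target of TGF-beta signalling, had the widest gaps between libraries of the same group. The si-Control_v libraries gave 37.4 and 18.9 CPM, the PBS libraries 23.8 and 21.1 CPM, and the Control columns 29.6 and 64.6 CPM. The si-Vldlr libraries gave 89.0 and 77.5 CPM, the Reelin libraries 21.1 and 59.2 CPM, and the Vldlr OE libraries 90.8 and 77.8 CPM. Its 4 highest values were therefore those of the si-Vldlr and Vldlr OE libraries, and within the Reelin group the higher library was 2.81 times the lower. In the smaller table it read 44.0 and 28.9 CPM in si-Control_t and 19.4 and 23.6 CPM in si-Thbs1.

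Cdkn2c, the p18 gene, was low in the Control and Vldlr OE libraries of the larger table, where Cdkn1a was high. It read 17.0 and 15.8 CPM in si-Control_v, 16.5 and 13.1 CPM in PBS, and 5.20 and 10.1 CPM in the Control columns. The si-Vldlr libraries held 13.3 and 12.4 CPM, the Reelin libraries 13.8 and 13.0 CPM, and the Vldlr OE libraries 6.30 and 4.32 CPM. The 4 Control and Vldlr OE libraries were the 4 lowest. In the smaller table it read 12.1 and 11.1 CPM in si-Control_t and 18.6 and 19.3 CPM in si-Thbs1, with no overlap.

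The first question was whether the rat control groups were alike. Control and PBS cultures differed in Cdkn1a. It averaged 298 ± 55.6 CPM (SD, n = 2) in Control and 119 ± 2.19 CPM (SD, n = 2) in PBS, 2.46-fold higher on the log2(CPM + 1) scale, which understates changes of low genes. The log2 fold change had an SE of 0.12 and a 95% interval from 1.03 to 1.57, with limma's Benjamini-Hochberg adjusted p = 0.00139 over 13860 tested genes, and both Control columns lay above both PBS libraries. Cdkn1a was the 1 of 6 members called, where 2.86% of all tested genes were called. At an unadjusted p under 0.05 it was 2 of 6 (Cdkn1a and Cdkn2c), beside 14.8%. Leaving out each library in turn kept the call, with log2 fold changes of 1.11 to 1.49.

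The other 5 members did not pass the test between Control and PBS. Cdkn2c averaged 7.66 ± 3.47 CPM in Control and 14.8 ± 2.41 CPM in PBS (SD, n = 2 each), giving a log2 fold change of -0.92 ± 0.25 (SE) with limma's adjusted p = 0.0837. Without Control column 2, which held the higher Cdkn2c value, it was -1.34, with a single Control library left in the fit. Against Control column 2 the difference was smaller. That column read 10.1 CPM and Control column 1 read 5.20 CPM, with 16.5 and 13.1 CPM in PBS. Cdkn2b had a log2 fold change of 0.94 ± 0.47 (SE) and an adjusted p of 0.40 by limma, and it was 1.49 without Control column 1 and 0.38 without Control column 2. The groups did not overlap for 4 of the 6 members (Cdkn1a, Cdkn1c, Cdkn2b and Cdkn2c), where 51.6% of all tested genes did not overlap.

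The si-Control_v cultures, set against the same Control columns, gave the mirror of that pattern. Cdkn1a averaged 119 ± 12.5 CPM (SD, n = 2) in si-Control_v, 2.48-fold lower than Control (log2 fold change -1.31 ± 0.12 SE, limma adjusted p = 0.00013). Cdkn2c averaged 16.4 ± 0.851 CPM (SD, n = 2), 2.09-fold higher than Control (log2 fold change 1.06 ± 0.25 SE, limma adjusted p = 0.0211). These were the 2 of 6 members called, beside 11.1% of all tested genes (24.6% at an unadjusted p under 0.05), and also the 2 whose groups did not overlap, beside 52.7%. The log2 fold change of Cdkn2c was 1.48 without Control column 2 and 0.64 without Control column 1, each with a single Control library left. The Cdkn2c call was lost without either si-Control_v library and without Control column 1. It was also lost with no filter on low values (limma adjusted p = 0.128) and with the 2 groups fitted alone (limma adjusted p = 0.106).

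Between si-Control_v and PBS no member was called by limma, where 2.94% of all tested genes were. At an unadjusted p under 0.05 it was 0 of 6, beside 15.8%, and all 6 members overlapped, where 50.8% of all tested genes did not. Cdkn1a had a log2 fold change of -0.01 (95% interval -0.28 to 0.25) and Cdkn2c of 0.14 ± 0.25 (SE). These 3 comparisons share their groups, so their values are not independent of each other. The si-Control_t libraries lie in a separately normalised table, and their values above were not tested against the other controls. The Control group differs from the PBS and si-Control_v groups in its label. It may also differ in what was added to the cells and in time, and these cannot be told apart.

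Knockdown of Vldlr left no member past limma's test, where 0.0289% of all tested genes were called. At an unadjusted p under 0.05 it was 1 of 6 members (Cdkn2b), beside 11.8% of all tested genes. The largest difference was in Cdkn2b, which averaged 83.3 ± 8.14 CPM with si-Vldlr and 28.2 ± 13.1 CPM in si-Control_v (SD, n = 2 each). Its log2 fold change was 1.60 ± 0.47 (SE; 95% interval 0.56 to 2.65), or 3.04-fold, with an unadjusted p of 0.0064 and an adjusted p of 0.293 by limma. Both si-Vldlr libraries lay above both controls, and the log2 fold change ran from 1.13 without si-Control_v replicate 2 to 2.08 without si-Control_v replicate 1. In the same comparison cardiomyocyte markers were positive in 0 of 7 (median -0.25, sums of 17776 and 18240.0 CPM with si-Vldlr and 20646 and 21088 CPM in si-Control_v) and smooth muscle and pericyte markers in 5 of 6 (median 0.20, sums of 3156 and 3249 CPM against 2798 and 2272 CPM), with none called, and their part was not tested.

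The remaining members moved less with si-Vldlr. Cdkn1a (log2 fold change -0.18, 95% interval -0.45 to 0.08) and Cdkn1b (-0.18, interval -0.38 to 0.01) had lower means, as did Cdkn2c (-0.33, interval -0.88 to 0.22). Cdkn2a had a higher mean, with a log2 fold change of 0.49 (interval -0.16 to 1.15). Each of these lay on 1 side of its control in both libraries, so 5 of 6 members did not overlap, where 48.5% of all tested genes did not, and Cdkn1c overlapped.

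Addition of Reelin left all 6 members overlapping with PBS and none called, where 32.8% of all tested genes did not overlap and 0.0144% were called by limma. At an unadjusted p under 0.05 it was 0 of 6 members, beside 1.36% of all tested genes. The log2 fold change of Cdkn1a was -0.04, with a 95% interval from -0.30 to 0.23. Cdkn2b averaged 40.1 ± 27.0 CPM with Reelin and 22.4 ± 1.86 CPM in PBS (SD, n = 2 each), and its interval ran from -0.40 to 1.68 on the log2 scale. The 2 Reelin libraries were far apart, and the SE behind the interval is pooled over all groups of the table.

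Overexpression of Vldlr came with the highest Cdkn1a of the rat tables, without passing the test across all genes. Cdkn1a averaged 425 ± 21.5 CPM in Vldlr OE and 298 ± 55.6 CPM in Control (SD, n = 2 each). Its log2 fold change was 0.53 ± 0.12 (SE; 95% interval 0.26 to 0.79), with an unadjusted p of 0.00135 and an adjusted p of 0.958 by limma. No member was called, where 0.00722% of all tested genes were, and Cdkn1a was the 1 of 6 members with an unadjusted p under 0.05, beside 4.52% of all tested genes. Without Control column 1, which held the higher Cdkn1a value, the log2 fold change was 0.72, with a single Control library left in the fit. Against Control column 1 the difference was smaller. That column read 337 CPM and Control column 2 read 258 CPM, with 441 and 410.2 CPM in Vldlr OE, so the size depended on the column.

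Cdkn2b averaged 84.3 ± 9.22 CPM in Vldlr OE against 47.1 ± 24.8 CPM in Control (SD, n = 2 each), with a log2 fold change of 0.93 ± 0.47 (SE). That value was 0.37 without Control column 1 and 1.48 without Control column 2, so it depended on which column was kept. Cdkn1a and Cdkn2b were the 2 of 6 members that did not overlap, where 25% of all tested genes did not. Cdkn2c read 5.31 ± 1.40 CPM in Vldlr OE and 7.66 ± 3.47 CPM in Control (SD, n = 2 each), and its groups overlapped.

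Knockdown and overexpression of Vldlr were also compared with each other, each against its own control. The difference between the log2 fold changes of Cdkn1a was -0.71 ± 0.17 (SE; 95% interval -1.09 to -0.33), with an unadjusted p of 0.0018 and an adjusted p of 0.706 by limma. For Cdkn2b it was 0.68 ± 0.66 (SE), with means above control under both treatments. No member was called on this difference, where 0.00722% of all tested genes were, and Cdkn1a was the 1 of 6 with an unadjusted p under 0.05, beside 4.68%. The 2 treatments also differ in time and in kind of control.

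Knockdown of Thbs1 gave non-overlapping groups for 4 of 6 members, where 29.3% of all tested genes did not overlap, and called none, where 0.0447% of all tested genes were called. Cdkn2c averaged 18.9 ± 0.475 CPM with si-Thbs1 and 11.6 ± 0.696 CPM in si-Control_t (SD, n = 2 each), giving a log2 fold change of 0.66 ± 0.15 (SE) with an unadjusted p of 0.0059 and an adjusted p of 0.471 by limma. Cdkn1c averaged 32.3 ± 8.19 CPM against 54.6 ± 9.74 CPM (SD, n = 2 each), with a log2 fold change of -0.75 ± 0.23 (SE) and an adjusted p of 0.653 by limma. Cdkn2b had a log2 fold change of -0.71 ± 0.24 (SE) and an adjusted p of 0.751, and Cdkn1a one of -0.30 ± 0.14 (SE) and an adjusted p of 1.0, both by limma. An unadjusted p under 0.05 was reached by 3 of 6 members (Cdkn1c, Cdkn2b and Cdkn2c) and by 5.52% of all tested genes. Summed cardiomyocyte markers differed within each group of this table, at 21737 and 15805 CPM in si-Control_t and 26253 and 12304 CPM in si-Thbs1. Fibroblast markers were positive in 0 of 8 (median -0.35, sums of 33017 and 38391 CPM in si-Control_t and 28089 and 34572 CPM in si-Thbs1), epicardial markers in 0 of 5 (median -0.26) and smooth muscle and pericyte markers in 5 of 6 (median 0.41), with none called. Their part in the member values was not tested.

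**Figure D2:**
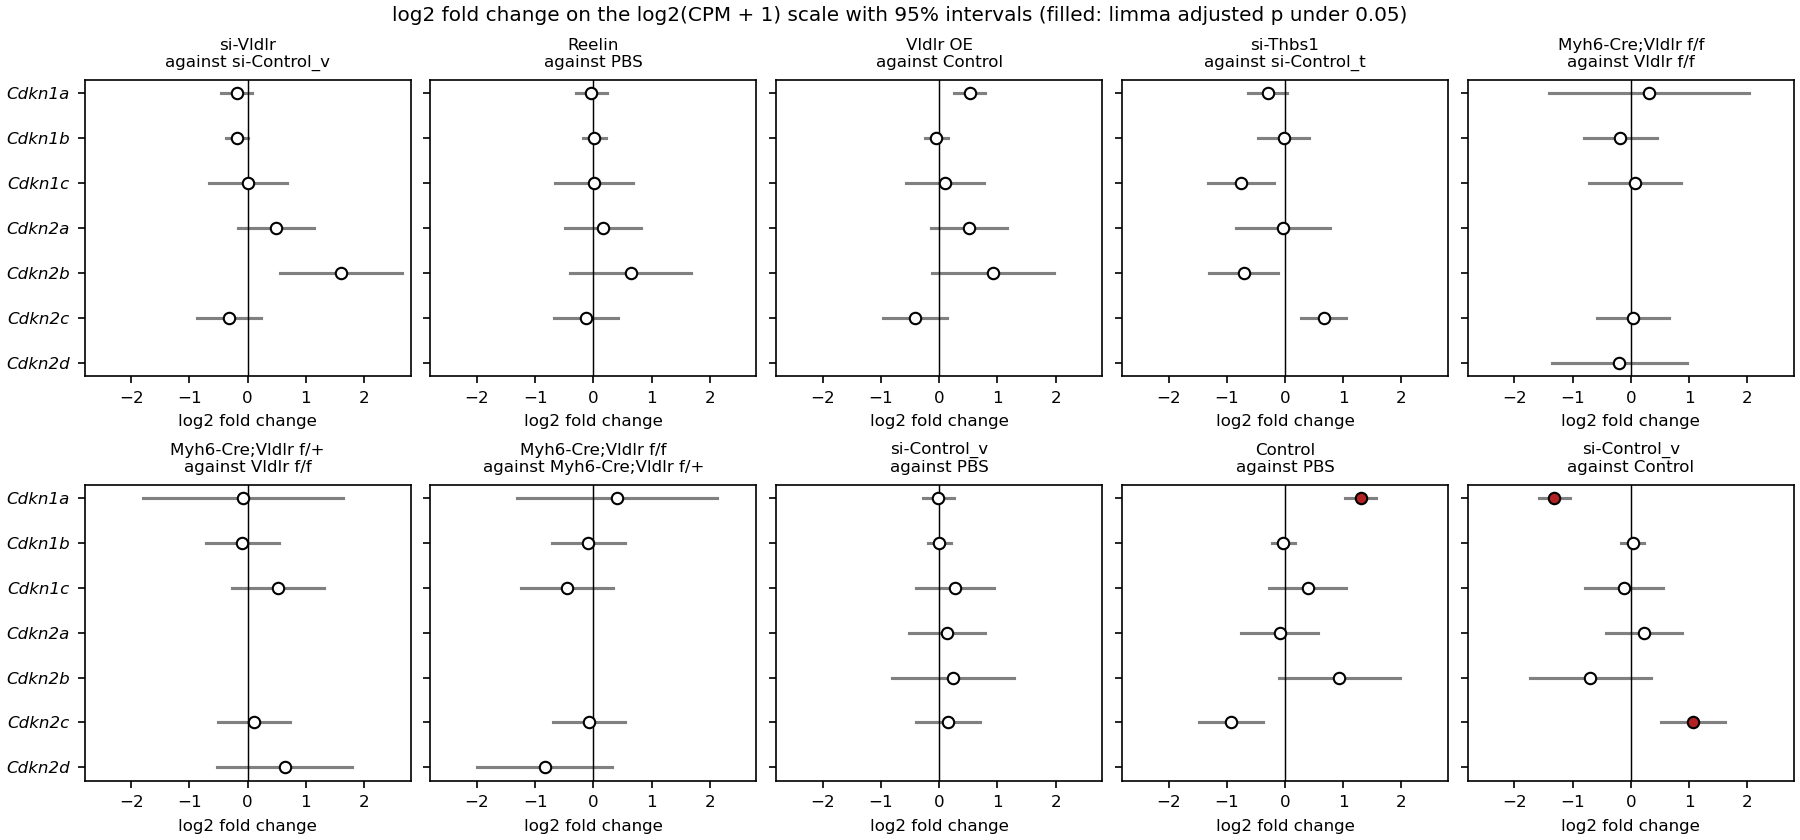
Log2 fold change (CPM + 1) of each tested member in 10 comparisons, with points at the estimate, lines for the 95% interval of the limma fit, and filled red points where limma's adjusted p was under 0.05. Filled points are Cdkn1a in Control against PBS and in si-Control_v against Control, and Cdkn2c in si-Control_v against Control.

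Lists of p53 targets other than p21, of mitosis and of DNA replication genes were read beside the members. Summed p53 targets were highest where Cdkn1a was highest: 2345 and 2015 CPM in the Control columns and 2543 and 2435 CPM in Vldlr OE, against 1449 to 1642 CPM in the other 8 libraries of that table. Summed mitosis genes were lowest in the same libraries, at 232 and 487 CPM in the Control columns and 221 and 208 CPM in Vldlr OE, against 696 to 939.8 CPM in the other 8. Control column 2 lay between, with the lowest Cdkn1a, the highest mitosis sum and the highest Cdkn2c of these 4 libraries.

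Between Control and PBS, 6 of 16 tested p53 targets rose and none fell, with a median log2 fold change of 0.44, beside 205 genes that rose and 192 that fell and a median of 0.02 over all 13860 tested. Those that rose were Mdm2, the ligase that degrades p53 (101 against 60.8 CPM), Ccng1 (732 against 495 CPM), the secreted stress factor Gdf15 (50.7 against 23.7 CPM), Btg2 (195 against 116 CPM), Phlda3 (403 against 267 CPM) and Eda2r (14.6 against 7.24 CPM). Of 17 mitosis genes, 8 fell and none rose, with a median of -1.15, among them the spindle checkpoint kinase Bub1 (15.6 against 31.9 CPM), the kinesin Kif20a (23.7 against 55.6 CPM) and the anaphase activator Cdc20 (21.3 against 49.3 CPM). These counts changed with the settings: without Control column 1 they were 0 of 16 and 1 of 17, without Control column 2 they were 7 and 17, and with no filter on low values or without either PBS library both were 0. The medians kept their sign in each of these, from 0.20 to 0.60 for the p53 targets and from -0.59 to -1.68 for mitosis.

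None of 16 DNA replication genes passed the test between Control and PBS, with 0 of 16 higher and a median of -0.40. The replication sum was 398 CPM in Control column 1 and 625 CPM in Control column 2, against 627 and 673 CPM in PBS. Control column 2 thus lay close to PBS. Of 10 retinoblastoma and E2F genes, 1 fell, the repressor E2f8 (3.37 against 6.53 CPM, limma adjusted p = 0.0479). Of 9 cyclins and kinases of G1 and S phase none passed, with a median of -0.18, and of 10 regulators of the inhibitors Mdm2 alone did. Macrophage markers had a median of -0.80 over 5 tested genes and Cd68 fell. The macrophage sum was 431 and 684 CPM in the Control columns and 841 and 907 CPM in PBS, and its part in the Cdkn1a difference was not tested.

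Set against Control, si-Control_v showed the opposite sign in the medians of the p53, mitosis and DNA replication lists, with Control shared between the comparisons. All 17 tested mitosis genes rose (median 1.39), 9 of 16 p53 targets fell (median -0.45) and 6 of 16 DNA replication genes rose (median 0.64), beside 880 genes that rose and 653 that fell and a median of 0.02 over all genes. Ccna2 (38.4 against 18.3 CPM) and Cdk2 (33.7 against 23.0 CPM) were the 2 of 9 cyclins and kinases that rose, and Rbl1, E2f7 and E2f8 the 3 of 10 retinoblastoma and E2F genes. With no filter on low values 3 mitosis genes, 2 p53 targets and 1 replication gene were called, with the 2 groups fitted alone 0, 2 and 0, and without Control column 1 they were 16, 3 and 2. Smooth muscle and pericyte markers also fell in 4 of 6 (median -1.15), with sums of 2798 and 2272 CPM in si-Control_v and 4580.1 and 5833 CPM in the Control columns. Cardiomyocyte markers were positive in 7 of 7 (2 rose, median 0.49), macrophage markers in 5 of 5 (0 called, median 0.40), and 2 of 5 epicardial markers fell (median -0.14). The part of these markers in the member differences was not tested.

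Between si-Control_v and PBS no gene of the p53, mitosis, replication, cyclin or E2F lists was called, with medians of 0.03 for p53 targets and 0.23 for mitosis beside 0.04 over all genes. Of 8 tested imprinted growth genes, a class to which Cdkn1c also belongs, Igf2 (119 against 271 CPM) and Dlk1 (3.38 against 11.2 CPM) fell there, and Cdkn1c was not called. Beside them 3 of 6 smooth muscle and pericyte markers fell (0 positive, median -0.83), 2 of 5 epicardial markers fell, and 1 of 7 cardiomyocyte and 1 of 8 fibroblast markers rose, and their part was not tested. Between Control and PBS, Grb10 alone of these 8 was called, and it fell (377 against 495 CPM).

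In the treatment comparisons no gene of these lists was called. With si-Thbs1, where Cdkn2c read higher, 17 of 17 mitosis genes and 16 of 16 DNA replication genes were positive (medians 0.92 and 0.70, against 0.03 over all genes), led by Nusap1 (35.3 against 18.0 CPM) and Kif20a (76.2 against 37.6 CPM). In Vldlr OE, where Cdkn1a read highest, 0 of 17 mitosis genes and 1 of 16 replication genes were positive (medians -0.58 and -0.35, against -0.03 over all genes), while 12 of 16 p53 targets were positive (median 0.15). The mitosis and replication differences lay mostly with Control column 2. Mitosis sums were 232 and 487 CPM in Control columns 1 and 2, and 221 and 208 CPM in Vldlr OE. Replication sums were 398 and 625 CPM in these columns, and 440 and 347 CPM in Vldlr OE. With si-Vldlr 0 of 17 mitosis genes were positive (median -0.35) and 7 of 16 p53 targets were (median -0.03), against a median of -0.02 over all genes. With Reelin 16 of 17 mitosis genes were positive (median 0.11), and 8 of 16 p53 targets were (median 0.01). Some mitosis genes were called in Vldlr OE without Control column 1, and with si-Thbs1 without si-Control_t replicate 1. Each of these fits kept a single control library, and calls over the whole table also moved with a library left out.

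**Figure D3:**
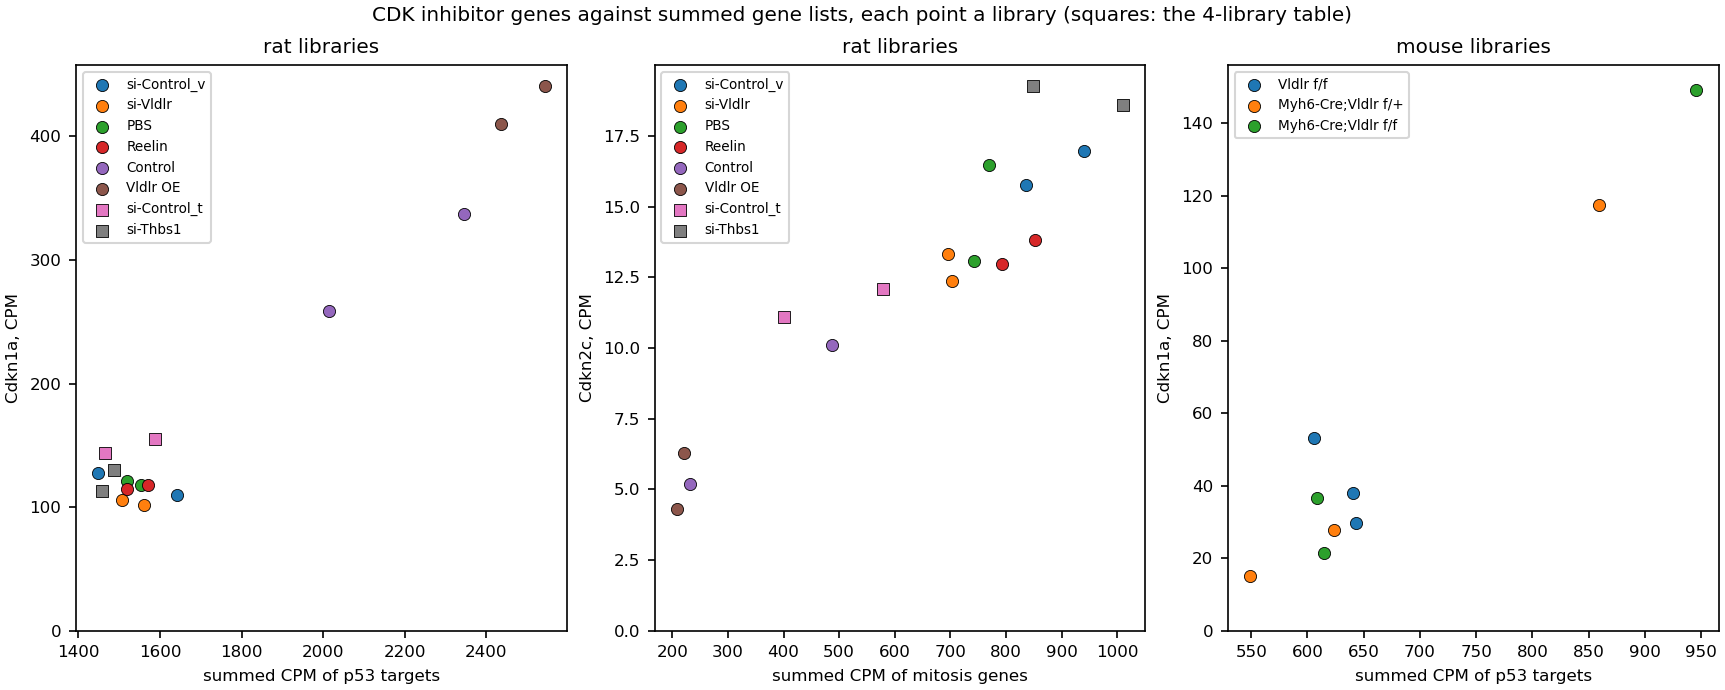
Level of a member in each library against the summed CPM of a gene list: Cdkn1a against p53 targets in rat, Cdkn2c against mitosis genes in rat, and Cdkn1a against p53 targets in mouse; circles are libraries of the larger rat table or of mouse, squares those of the smaller rat table. In rat the Control and Vldlr OE points stand at the upper right in the first panel and lower and further left than the other circles in the second, and in mouse the libraries numbered 3 of both Cre groups stand at the upper right.

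In mouse no member was called in any of the 3 comparisons, and neither was any other tested gene (0% of 14922 by limma; 3.04%, 2.43% and 0.925% at an unadjusted p under 0.05, and no gene by edgeR on whole steps). The groups of every tested member overlapped in all 3 comparisons, where 8.52%, 5.97% and 2.49% of all tested genes did not overlap. Both comparisons with Vldlr f/f share those libraries.

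Cdkn1a (chr17:29090976-29100727, plus strand, GRCm38) varied more between libraries of a group than between genotypes. It read 53.2, 38.0 and 29.7 CPM in Vldlr f/f, 15.1, 27.9 and 118 CPM in Myh6-Cre;Vldlr f/+, and 21.4, 36.6 and 149 CPM in Myh6-Cre;Vldlr f/f. The libraries numbered 3 of the 2 Cre groups were the highest of the 9, and the libraries numbered 1 and 2 of these groups lay within or below the range of Vldlr f/f. The same 2 libraries had the highest p53 target sums, 859 and 946 CPM, against 549 to 643 CPM in the other 7, and mitosis sums of 485 and 607 CPM, the highest of the 9.

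With Vldlr f/f as the reference, the log2 fold change of Cdkn1a in Myh6-Cre;Vldlr f/f was 0.32 ± 0.77 (SE; 95% interval -1.40 to 2.04), and -0.47 without the library numbered 3. In Myh6-Cre;Vldlr f/+ it was -0.08 ± 0.77 (SE; interval -1.80 to 1.64), and between the Cre groups 0.40 ± 0.77 (SE). Against Vldlr f/f the direction depended on single libraries, and the interval spans changes of over 2-fold either way. Between same-numbered Cre libraries, whose pairing is inferred from these data and not established, Cdkn1a was higher in Myh6-Cre;Vldlr f/f in 3 of 3. The share of all tested genes with such a count was not computed, so nothing is concluded from it. Cdkn1b, Cdkn1c and Cdkn2c went both ways between these libraries. With the replicate number as a block the log2 fold change of Cdkn1a, 0.40, had an adjusted p of 0.999 by limma. Leaving out the Myh6-Cre;Vldlr f/f library numbered 3, but not the heterozygous one of that number, gave -0.39 in the fit without a block.

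**Figure D4:**
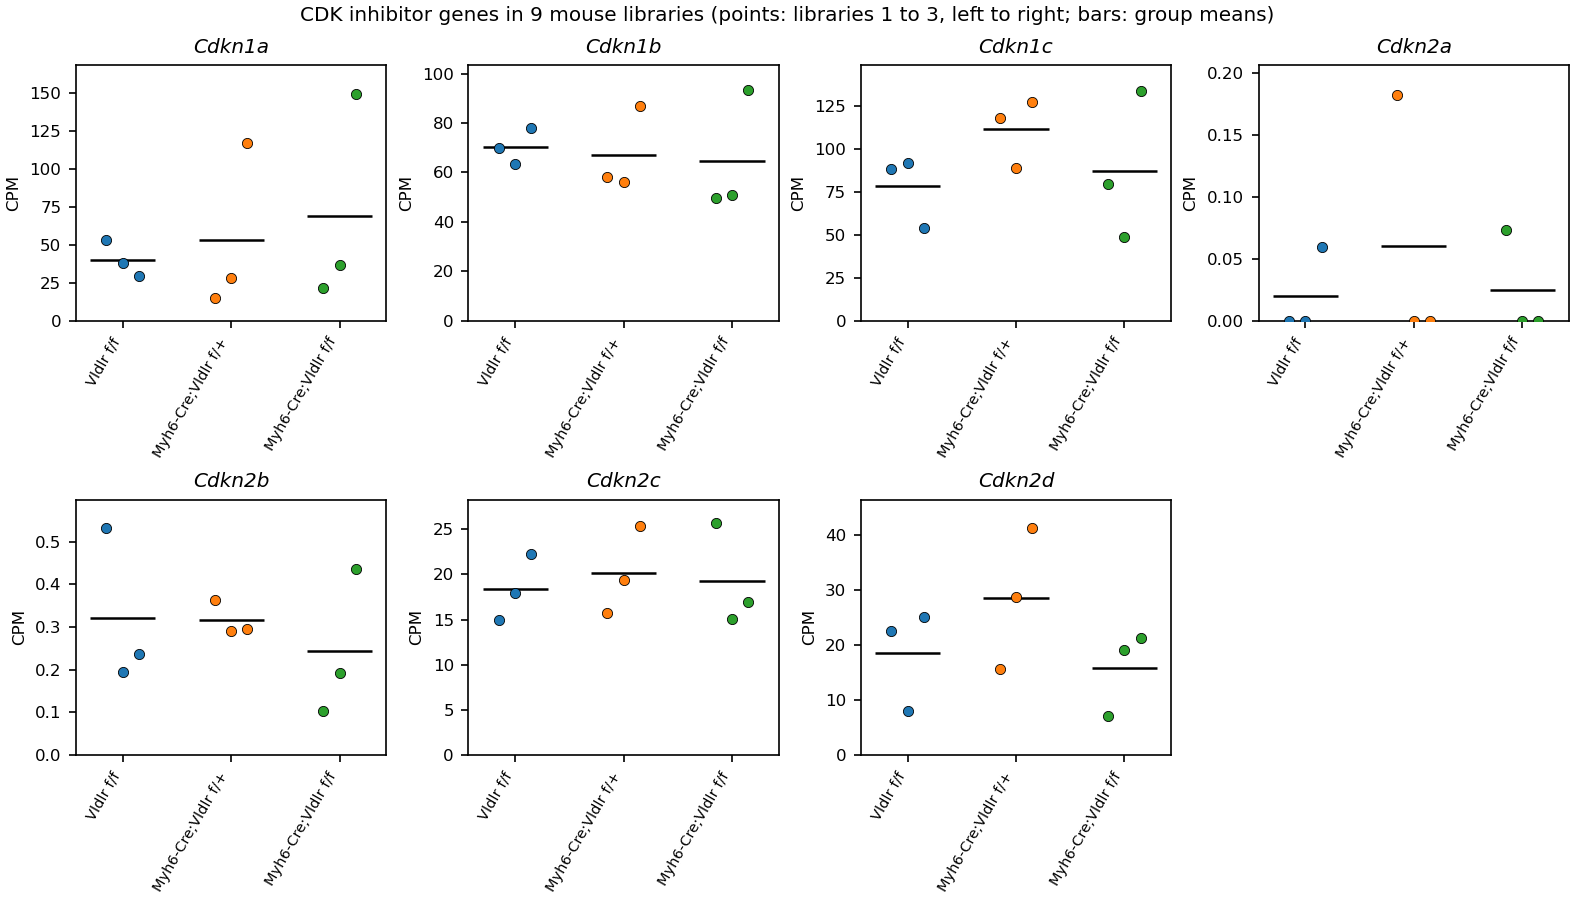
CPM of the 7 members in mouse by genotype; points are the libraries numbered 1 to 3 from left to right in each group, and bars are group means. Cdkn1a in the libraries numbered 3 of the Cre groups stands at 118 and 149 CPM, above the 15.1 to 53.2 CPM of the other 7.

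Cdkn1b (chr6:134920401-134925513, plus strand) averaged 70.4 ± 7.24 CPM in Vldlr f/f, 67.0 ± 17.1 CPM in Myh6-Cre;Vldlr f/+ and 64.7 ± 25.0 CPM in Myh6-Cre;Vldlr f/f (SD, n = 3 each). For Cdkn1b the libraries numbered 3 were the highest of each group, at 77.9, 86.7 and 93.5 CPM. Cdkn1c (chr7:143458339-143461050, minus strand) averaged 78.0 ± 20.9, 111 ± 20.1 and 87.2 ± 42.8 CPM in the same order (SD, n = 3 each), and its highest group was the heterozygous one. Its log2 fold change there against Vldlr f/f was 0.53 ± 0.36 (SE; 95% interval -0.26 to 1.32). The annotation places an antisense gene over Cdkn1c and another gene on the opposite strand over Cdkn1a, and no source used here gives the counting strand, so reads of the 2 strands may be mixed in these values.

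Cdkn2c (chr4:109660876-109667189, minus strand) averaged 18.4 ± 3.67, 20.1 ± 4.87 and 19.3 ± 5.63 CPM in Vldlr f/f, Myh6-Cre;Vldlr f/+ and Myh6-Cre;Vldlr f/f (SD, n = 3 each). Cdkn2d (chr9:21288410-21291407, minus strand), the p19 gene, read 22.5, 7.96 and 25.0 CPM, then 15.6, 28.6 and 41.3 CPM, and then 7.13, 19.1 and 21.3 CPM in that order of genotypes. The log2 fold change of Cdkn2d between the Cre groups was -0.84 ± 0.52 (SE; 95% interval -2.00 to 0.32), the widest difference among the members, with overlapping groups. Between same-numbered libraries, whose pairing is not established, Cdkn2d was lower in Myh6-Cre;Vldlr f/f in 3 of 3, again a count without its share over all genes. With the replicate block the adjusted p was 0.999 by limma. Cdkn2a (chr4:89274471-89294653, minus strand) was at 0 in 6 of 9 libraries and reached 0.182 CPM at most, and its neighbour Cdkn2b (chr4:89306299-89311039, minus strand) lay between 0.103 and 0.533 CPM. Both were below the filter of 1 CPM and were not tested.

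Per kilobase of merged exon, which allows genes to be compared, Cdkn1c was the most abundant member in mouse, with a median of 43.4 CPM per kilobase over the 9 libraries (lowest 23.9, highest 65.4). Cdkn1b followed at 13.9 (10.9 to 20.5), Cdkn2d at 13.5 (4.53 to 26.2) and Cdkn1a at 10.3 (4.25 to 42.0), and these 3 overlapped in range. Cdkn2c stood at 6.70 (5.58 to 9.56), within the ranges of Cdkn1a and Cdkn2d. Cdkn2b at 0.209 and Cdkn2a at 0 were far below the others. Exon lengths on the rat build were not used here, so no such order is given for rat.

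The mitosis list was higher on median in Myh6-Cre;Vldlr f/f than in Vldlr f/f (17 of 18 genes positive, median 0.94, against -0.11 over all genes), and p53 targets were close to 0 (10 of 17 positive, median 0.03), with no gene called in either. Rescaling by median ratios moved the median of all genes in this comparison from -0.11 to -0.00. In Myh6-Cre;Vldlr f/+ 18 of 18 mitosis genes were positive against Vldlr f/f (median 0.51, against -0.06 over all genes). The Vldlr f/f library numbered 1 had a mitosis sum of 113 CPM, the lowest of the 9, where the other 2 had 350.2 and 299 CPM. Epicardial markers were positive in 4 of 5 in Myh6-Cre;Vldlr f/f (median 0.86) and in 5 of 5 in Myh6-Cre;Vldlr f/+ (median 1.10), with none called. Their sums were 80.9 to 145 CPM in Vldlr f/f, 113 to 402 CPM in Myh6-Cre;Vldlr f/+ and 126 to 293 CPM in Myh6-Cre;Vldlr f/f, highest there in the library numbered 3, and their part was not tested.

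Genes whose log2(CPM + 1) followed each member most closely were ranked by Pearson correlation as a description. Over the 12 libraries of the larger rat table, which share groups and a normalisation, Cdkn1a was followed by Jam3 (r = 0.991), Ecm1 (r = 0.986) and the p53 target Mdm2 (r = 0.985). Cdkn2c was followed by the tubulin-binding gene Stmn1 (r = 0.990), the mitotic kinesin Kif23 (r = 0.986) and Ccna2, the cyclin of S phase (r = 0.985). Cdkn1b (Tgif2, r = 0.875), Cdkn1c (Oaz2, r = 0.924), Cdkn2a (Tmem243, r = 0.896) and Cdkn2b (Mdfi, r = 0.899) had less close first matches.

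Over the 9 mouse libraries the closest genes were Fam107a for Cdkn1a (r = 0.983), Tgfbr2 for Cdkn1b (r = 0.972), Rpl37a for Cdkn1c (r = 0.980), Lin9 for Cdkn2c (r = 0.915) and Scoc for Cdkn2d (r = 0.930). With 10234 candidate genes in rat and 10502 in mouse and so few libraries, high values are found for many genes. No gene was among the first 3 of the same member in both species.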

How the data were processed

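The deposited values are CPM per gene, made by the authors. Tools named in the submitters' processing notes are edgeR 3.20.9, HISAT2 2.1.0 and StringTie 1.3.4. The notes name mm10 and rn6 as builds and give none of them a role or an order. No source used here gives the annotation release. Total RNA was extracted with TRIzol, per the labels' protocols. Preparation of mouse cells is described in none of the sources used here. By name, 23 columns were tied to a sample, and 2 went to the Control group by elimination. Lines with a repeated, date-like name (4 per table) were left out, and 0 columns of per-sample values went unused.

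Because CPM are not counts, limma 3.58.1 (R 4.3.3) was fitted with an intensity trend to log2(CPM + 1), within a table, with 1 mean per group and all groups together, for genes with at least 1 CPM in 2 rat or 3 mouse libraries. P-values were adjusted by Benjamini-Hochberg over all genes tested (13860, 13416 and 14922 in the larger rat, smaller rat and mouse tables), with calls under 0.05. On data simulated for each comparison, 80% to 88% of 2-fold changes were recovered in the larger rat table, 16% in the smaller and 13% to 18% in mouse. The simulations held many changed genes, none of them at low levels, with independent noise and no other group difference. Where few genes change, the adjusted threshold is harder to pass. These percentages therefore do not carry over to the treatment comparisons, such as si-Vldlr with 4 genes called. Low mouse values were whole multiples of a step in 100% of cases (within 0.05 steps), so edgeR 4.0.16 was run on those steps in mouse as an alternative. How many reads a step stands for is unknown, so counting intervals are not given.

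The members and lists were chosen with earlier results of these data known. Named genes were all 7 members, list genes that were called or had the 2 smallest p-values of their list in a comparison described, the 3 genes most like a member among tested genes averaging 5 CPM or more, and Vldlr and Thbs1. Same-numbered libraries of the 2 Cre groups deviated together (r = 0.47, 0.47 and 0.33 across genes), passing a rule of over 0.1 in every pair. So did si-Control_t with si-Thbs1 (r = 0.40) and si-Control_v with si-Vldlr (r = 0.16). Differently numbered libraries of the Cre groups gave r of -0.41 to 0.09. Those of other mouse groups could be as alike, such as Vldlr f/f 2 with Myh6-Cre;Vldlr f/f 1 (r = 0.46). These values do not establish pairs, and the main fits had no block. GENCODE M21 (GRCm38, mm10) gave the mouse coordinates and RefSeq (GRCr8) the rat promoter. Alternatives were a pseudocount of 0.25, no filter, median-of-ratios rescaling, the 2 groups fitted alone, a replicate block, the fit without the Control columns, each library left out, and, added after seeing the data, edgeR on steps and the fit without both Cre libraries numbered 3.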

Additional observations from a re-analysis of the deposited data

How the results depend on the processing

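The number of members called changed in 3 comparisons. In Vldlr OE against Control it was 0, and 0 to 1 with each library left out. In Control against PBS it was 1, and 1 to 2 with each library left out. In si-Control_v against Control it was 2, and it was 1 with no filter on low values, 1 with the 2 groups fitted alone, and 1 to 2 with each library left out. In these 3 comparisons a fit with a library left out keeps a single library in a group. Calls over the whole table moved in such fits as well. A set of 22 member and comparison pairs was followed. It held those without overlap, those with an unadjusted limma p under 0.05, and Cdkn1a in each treatment or genotype comparison. In this set 6 of 98 values with a library left out and 2 of 108 under other alternatives were reversed in sign. All of these were Cdkn1a in mouse. In the other 41 pairs, some of them also given above, the reversed values were 53 of 208 and 6 of 219. Comparing Myh6-Cre;Vldlr f/f with Vldlr f/f, the log2 fold change of Cdkn1a ran from -0.47 to 0.90 with each library left out. It was -0.47 both without the Cre library numbered 3 and without both Cre libraries numbered 3. Comparing Myh6-Cre;Vldlr f/+ with Vldlr f/f, it ran from -0.90 to 0.54 with each library left out, and reversed values were 0.14 without the Vldlr f/f library numbered 1, 0.54 and 0.12 without the heterozygous libraries numbered 1 and 2, and 0.45 by edgeR on steps. Between the Cre groups it ran from -0.39 to 1.22, and reversed values were -0.22 without the heterozygous library numbered 1 and -0.39 without the Myh6-Cre;Vldlr f/f library numbered 3. The cause was not tested.

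Over the whole table, genes called moved by more than 1.5 times. With no filter on low values they were 15 in place of 4 with si-Vldlr, 14 in place of 2 with Reelin, 8 in place of 1 in Vldlr OE, 29 in place of 6 with si-Thbs1, 7, 9 and 6 in place of 0 in mouse, 267 in place of 408, 80 in place of 397 and 757 in place of 1533 between controls, and 16 in place of 1 for the difference between Vldlr effects. With the 2 groups fitted alone they were 8, 13 and 8 for si-Vldlr, Reelin and Vldlr OE, 1 for Myh6-Cre;Vldlr f/f compared with Vldlr f/f, and 262 and 447 for si-Control_v against PBS and Control. A pseudocount of 0.25 gave 0 for the difference between Vldlr effects. With each library left out they ran from 4 to 167 with si-Vldlr, 4 to 9 with Reelin, 2 to 257 in Vldlr OE, 15 to 268 with si-Thbs1, 0 to 1 in the comparisons of mouse with Vldlr f/f, 0 to 6 for the difference between Vldlr effects, 180 to 614 for si-Control_v against PBS, 52 to 464 for Control against PBS and 639 to 1519 for si-Control_v against Control.

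With the replicate block 0 members were called in each comparison where it could be fitted, and no call of a member changed, while genes called with si-Thbs1 went from 6 to 43. There the adjusted p by limma was 0.0533 for Cdkn1c and 0.0844 for Cdkn2c. No paired analysis was possible for comparisons with Control because its columns carry no replicate number of the labels. With 2 libraries per rat group and 3 per mouse group, most simulated 2-fold changes were missed in the smaller rat table and in mouse. Simulated 4-fold changes were recovered in 65% of cases in the smaller rat table and in 73% to 82% in mouse. The limits of the simulations given above apply. In the larger rat table the 3.04-fold difference of Cdkn2b with si-Vldlr also did not pass limma's adjusted threshold. Cdkn2a and Cdkn2b in mouse lay too low to be tested.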
